A study of Drosophila melanogaster with 14 samples.

Results

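Vajk1, Vajk2, Vajk3 and Vajk4 are 4 of the 17558 genes counted in whole animals of the fruit fly Drosophila melanogaster. They were taken by their FlyBase symbols, and they were chosen by their measured levels and fold changes in the comparisons given here. Their values are therefore a description, without a test. The study compared mutants of lola, a gene for many isoforms of a BTB zinc finger transcription factor, with controls in 3 sets that hold 14 libraries of polyA RNA. The lola-F set held 3 mutant libraries (lola-F stop / Df(2R)ED2076) and 3 control libraries (Wild type / Df(2R)ED2076) of embryos labelled 15 h after fertilization, each from a pool of 100 embryos. The lola-null set held 2 mutant libraries (lola E76 / Df(2R)ED2076) and 2 control libraries (Wild type / Df(2R)ED2076) of embryos with the same age label, with no pool size named in the labels. The lola-O set held 2 mutant libraries (lola-O / Df(2R)ED2076) and 2 control libraries (Wild type / Df(2R)ED2076) of adults within 10 h of eclosion, each from a pool of 10 flies. Mutants and controls of all 3 sets thus carried the deficiency Df(2R)ED2076 opposite the mutant or wild-type copy of the region. Mutant embryos were sorted by hand on mCherry, per the series' design text.

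The insect cuticle is secreted by the epidermis as a fabric of chitin fibres and cuticle proteins, and it is hardened and coloured by tanning. The larval cuticle is laid down late in embryogenesis, and the adult cuticle is made in the pupa and still grows after eclosion. The Vajk proteins are cuticle proteins of flies that were described from the Nimrod gene cluster, a group of genes best known for phagocytosis receptors of blood cells. The large families of cuticle proteins are the chitin-binding proteins, among them those named Cpr and Lcp, and the Tweedle proteins.

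In the BDGP6.54 annotation, 3 of the genes lie side by side on chromosome 2L and on its minus strand. Vajk1 (FBgn0028938) spans 2L:13920707-13923553, Vajk2 (FBgn0032538) spans 2L:13932559-13934692 and Vajk3 (FBgn0028544) spans 2L:13944756-13947476. All 3 lie within the span of Ance-3 (2L:13914725-13956188), a gene of the angiotensin-converting enzyme family on the plus strand, and share 0 exonic bases with it. Vajk4 (FBgn0050101) lies apart from them on the minus strand of chromosome 2R (2R:17408258-17410204) and overlaps no annotated gene. The joined exons of the 4 genes measure 2433, 1333, 1413 and 1545 bases.

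Gene counts per library ran from 3326811 to 22629694. The shallowest, lola-F control 1, had 65.2% of its reads at several places of the genome. In the lola-null set this share was 22.9% and 15.8% in the mutants and 40.4% and 26.6% in the controls. In the remaining libraries it was 3.17% to 4.78%. Both lola-null controls thus lay above both mutants in this share, and its part in the values of that set was not tested. The mutated gene, lola, was at 151, 154 and 236 CPM (counts relative to the library size) in the 3 lola-F mutants and at 274, 259 and 361 CPM in the 3 controls when scaled within the set, and did not pass in edgeR (log2 fold change −0.73 ± 0.22 SE, adjusted p = 0.0796). The groups did not overlap on that scale, but with all 14 libraries scaled together mutant 3 (270.5 CPM) lay above controls 1 and 2 (259.8 and 268 CPM). By exact permutation of the 6 libraries on the scale of the set, two-sided, p was 0.1, which no arrangement of 3 against 3 can undercut. The library labelled lola-null mutant 1 held 1044 CPM of lola against 1016 and 1414 CPM in its controls when scaled within the set, and 892 CPM against 938 and 1294 CPM on the scale of 14 libraries. The library labelled lola-null mutant 2 held 369 and 308 CPM on these scales. In lola-O adults the log2 fold change of lola was 0.01 ± 0.20 (adjusted p = 0.993). A gene count sums all isoforms and so does not check an allele that alters 1 isoform or the protein.

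The 4 genes fell into 2 pairs by where they were expressed. Vajk2 and Vajk3 were among the most abundant transcripts of lola-F embryos and of young adults and were low in the lola-null set, whereas Vajk1 and Vajk4 were close to absent in lola-F embryos and highest in lola-null mutants. Levels set across the sets are CPM, counts relative to the library size after all 14 libraries were scaled together, given as mean ± SD with n = 3 per lola-F group and n = 2 per other group. In RNA of whole animals, fewer cells of a type and less RNA per cell cannot be told apart.

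The level of Vajk2 was 1205 ± 60.2 CPM in lola-O controls and 1138 ± 440.2 CPM in lola-O mutants, and these ranges overlapped. It was 742 ± 64.5 CPM in lola-F mutants, 446 ± 56.2 CPM in lola-F controls, 64.8 ± 22.2 CPM in lola-null mutants and 3.62 ± 1.43 CPM in lola-null controls. Below the adults, each group in this order lay apart from the next. Ranked per kb of exon among 17113 genes, Vajk2 stood at place 70 in lola-O controls, 227 in lola-F mutants, 268 in lola-F controls and 7803 in lola-null controls.

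The order of Vajk3 was the same. Its level was 1118 ± 1.49 CPM in lola-O controls, 960.2 ± 392 CPM in lola-O mutants, 731 ± 11.6 CPM in lola-F mutants, 467 ± 90.2 CPM in lola-F controls, 49.9 ± 11.8 CPM in lola-null mutants and 5.39 ± 0.894 CPM in lola-null controls. The wide range of the lola-O mutants (683 to 1237 CPM) took in both the lola-O controls and the lola-F mutants. The other neighbours in this order lay apart.

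Vajk1 took another order. Its level was 43.1 ± 14.5 CPM in lola-null mutants, 21.7 ± 9.98 CPM in lola-O controls, 17.9 ± 6.28 CPM in lola-O mutants and 1.18 ± 0.604 CPM in lola-null controls. In the lola-F set Vajk1 had 2 counts over the 3 mutant libraries and 6 counts over the 3 controls. The lola-O groups overlapped with each other, and so did the lola-F groups, in which 3 of 6 libraries held no count.

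Vajk4 followed Vajk1. Its level was 169 ± 16.9 CPM in lola-null mutants, 22.1 ± 12.5 CPM in lola-O mutants, 14.5 ± 4.97 CPM in lola-O controls and 4.32 ± 0.981 CPM in lola-null controls. The lola-F mutants held 0.653 ± 0.368 CPM and the lola-F controls 0.302 ± 0.204 CPM. The lola-O groups overlapped, and so did the lola-F groups. Per kb of exon, Vajk4 stood at place 752 in lola-null mutants, ahead of Vajk2 at 1865, Vajk3 at 2411 and Vajk1 at 3908. In lola-F controls its place was 11403, against 268 for Vajk2 and 270 for Vajk3.

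**Figure D1:**
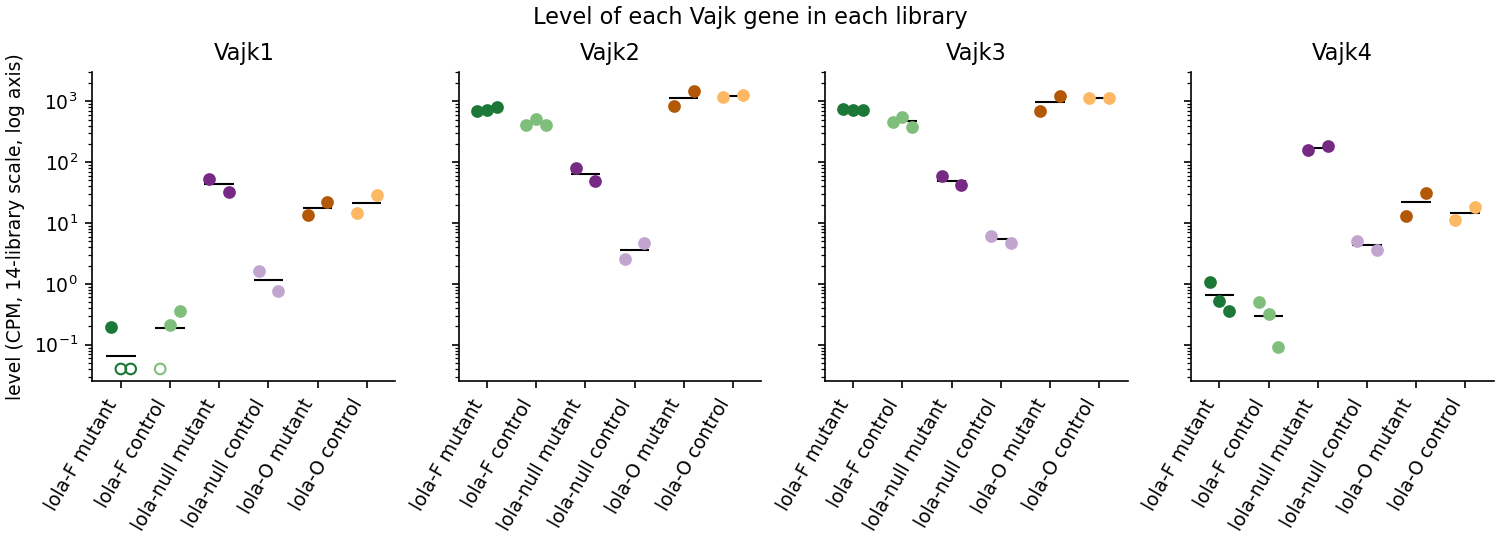
Level of each Vajk gene in each library, in CPM on the scale of all 14 libraries (log axis), by group. Points are libraries, black lines are group means and open circles at the foot are libraries with a count of 0. Vajk2 and Vajk3 sit near the top of the axis in lola-F embryos and lola-O adults, while Vajk1 and Vajk4 reach their highest level, 43.1 and 169 CPM on average, in lola-null mutants.

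The make-up of the Vajk counts, which needs no scaling between libraries, set the sets apart. Vajk1 and Vajk4 together made up between 0.0233% (lola-F mutant 3, 6 of 25768 Vajk counts) and 0.0873% (lola-F mutant 1, 13 of 14890) of the Vajk counts of the 6 lola-F libraries. In the adults their share was 1.74% and 1.94% in the mutants and 1.11% and 1.94% in the controls. In the lola-null set it was 60.3% (95% exact binomial interval 58.3% to 62.2%, 1504 of 2495 counts) and 70.2% (67.8% to 72.6%, 998 of 1421) in the mutants. The lola-null controls had 43.4% (32.1% to 55.3%, 33 of 76) and 31.8% (23.3% to 41.4%, 35 of 110). The share of the pair was thus higher in both lola-null mutants than in both controls. These intervals cover counting error only.

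**Figure D2:**
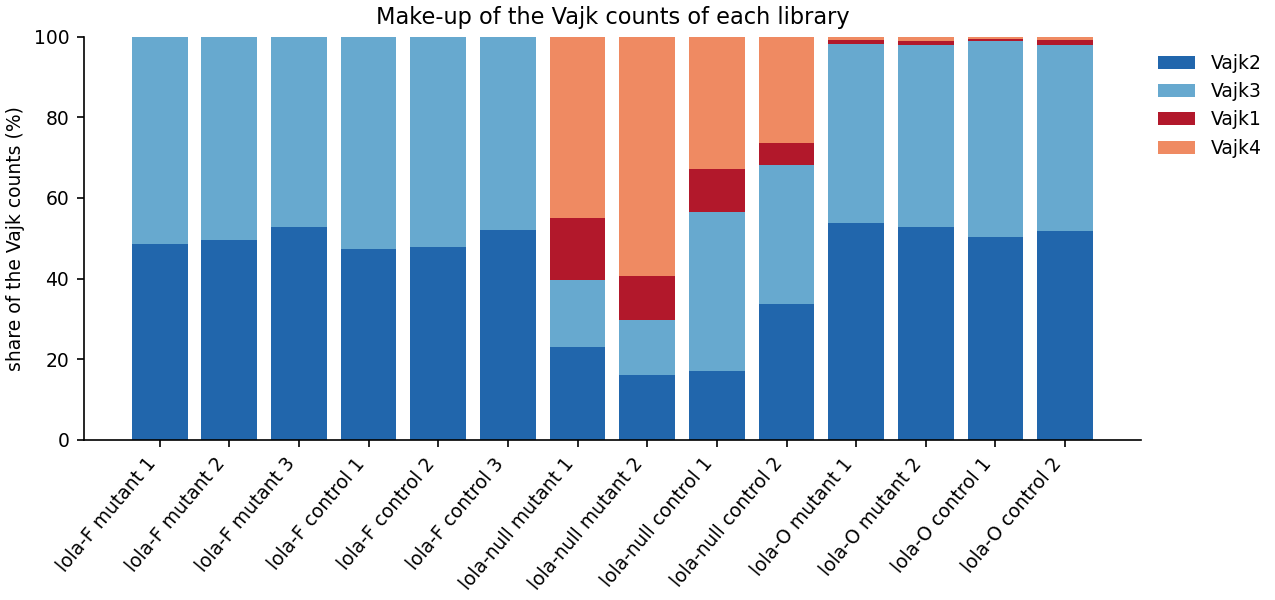
Make-up of the Vajk counts of each library, in percent, with 1 bar per library and 1 colour per gene. Vajk1 and Vajk4 are barely visible in the lola-F bars, form a thin band in the adults and take 60.3% and 70.2% of the bar in the 2 lola-null mutants.

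Within the pair of Vajk2 and Vajk3 the balance was close to even. Vajk2 made up between 47.3% (lola-F control 1) and 52.7% (lola-F mutant 3) of the pair's counts in lola-F embryos and between 50.9% (lola-O control 1) and 54.8% (lola-O mutant 1) in adults. In lola-null mutants its share was 58.0% and 54.1%, and in lola-null controls 30.2% and 49.3%, of 43 and 75 counts. The intervals of the controls (17.2% to 46.1% and 37.6% to 61.1%) were too wide to place them. In lola-O adults both mutant shares (54.8% and 53.9%) were above both control shares (50.9% and 52.8%).

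Across the 14 libraries, log2(CPM + 1) of Vajk2 and Vajk3 had a Pearson correlation of 0.994, and of Vajk1 and Vajk4 of 0.943. In the 10 embryo libraries these values were 0.993 and 0.984, and in the 6 lola-F libraries 0.951 and −0.311, where Vajk1 and Vajk4 had few counts. Between the pairs the correlations over 14 libraries ran from −0.248 to 0.051. The libraries fall into 3 sets with large differences between them, so these values mainly describe differences between sets.

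The comparison of mutants labelled lola-null with their controls addressed the effect of the E76 allele, which the labels call a null. Levels here and in the other mutant comparisons are CPM scaled within the set. Vajk4 was at 184 and 217 CPM in the 2 mutants and at 5.44 and 3.96 CPM in the 2 controls. Vajk1 was at 62.4 and 39.3 CPM in the mutants and at 1.74 and 0.820 CPM in the controls, which rest on 8 and 6 counts. Both mutants stood far above both controls for each gene. The log2 fold change was 5.42 ± 0.52 (SE) for Vajk4, 42.9-fold, and 5.37 ± 0.58 for Vajk1, 41.2-fold. Vajk1 reached the filter on low counts (1.88 CPM before scaling, in 2 libraries) only with its mutants. A rise of Vajk1 was thus largely built into its being tested.

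Vajk2 and Vajk3, the pair of the lola-F embryos, were also higher in lola-null mutants. Vajk2 was at 94.2 and 58.8 CPM in the mutants and at 2.83 and 5.06 CPM in the controls, from 13 and 37 counts. Vajk3 was at 68.2 and 49.8 CPM in the mutants and at 6.52 and 5.19 CPM in the controls, from 30 and 38 counts. The groups did not overlap for either gene. The log2 fold change was 4.24 ± 0.49 for Vajk2, 18.9-fold, and 3.34 ± 0.47 for Vajk3, 10.1-fold.

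Of the 4 genes, 4 were past the threshold (adjusted p under 0.05 in edgeR) as higher, against 7.42% of the 9288 genes tested called higher and 9.49% called lower. The genes were chosen on this contrast and Vajk1 entered through its mutants, so nothing is read from that count. The median log2 fold change was 4.80 over the Vajk genes, Vajk1 included, and 0.10 over all genes. Without the library labelled lola-null mutant 1, whose lola level was closer to its controls than to mutant 2, the log2 fold changes were 4.89, 3.75, 2.99 and 5.44 for Vajk1 to Vajk4, and without mutant 2 they were 5.70, 4.55, 3.57 and 5.33.

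Many other cuticle genes rose as well, but most of those tested were too low in the controls to pass the filter on low counts there, and entered through their level in the mutants, so that a rise was largely built into being tested. Of the 99 chitin-binding cuticle genes, 44 were tested. Of these, 9 reached the filter (1.88 CPM before scaling, in 2 libraries) in the controls alone, and 5 of the 9 rose and 0 fell, with a median log2 fold change of 2.64. The other 35 entered through the mutants, and 34 of them rose. Of the 27 Tweedle genes, 20 were tested. Of these, 8 reached the filter in the controls alone and 8 rose, with a median of 3.35, and the 12 that entered through the mutants rose too. Among those that entered through the mutants, the chitin-binding gene Cpr65Ea was at 391 ± 131 CPM in mutants and 1.17 ± 0.497 CPM in controls (adjusted p = 5e-10), and Cpr56F at 72.1 ± 3.94 and 0.640 ± 0.325 CPM (adjusted p = 1.68e-09). Lcp65Ag2 was at 66.7 ± 19.9 CPM against 0.218 ± 0.308 CPM, from 2 counts in the controls (adjusted p = 1.79e-09). The Tweedle gene TwdlM, which reached the filter in the controls, rose 257-fold, from 2.15 ± 0.339 to 554 ± 4.13 CPM. TwdlL rose 305-fold and TwdlB 203-fold, from 7 and 11 counts in the controls (adjusted p = 5e-10 for each of the 3, n = 2 per group in edgeR).

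Genes that make and tan the cuticle changed in part. Of 24 tested genes of chitin formation, 4 rose and 1 fell. obst-E, a chitin-binding protein of the larval cuticle, rose from 0.531 ± 0.171 to 54.0 ± 8.65 CPM (adjusted p = 3.57e-09 in edgeR) and snsl, which is needed for the outer barrier of the cuticle, rose 17.7-fold (adjusted p = 5.87e-06). Idgf2, a chitinase-like growth factor, was 4.31-fold lower (adjusted p = 0.000704). Of 9 tested tanning genes 4 rose, among them Ddc, the dopa decarboxylase, from 0.789 ± 0.729 to 15.3 ± 8.94 CPM (adjusted p = 2.46e-05). The tanning gene b (black) was at 4.79 ± 1.21 against 0.463 ± 0.268 CPM (adjusted p = 0.000938). The chitin formation calls, 5 in all, numbered 11 and 9 without mutant 1 or 2 and 2 without either control, and the 4 tanning calls numbered 3, 5, 2 and 1 without mutant 1, mutant 2, control 1 and control 2. Of the 8 genes of both lists that rose, 5 had entered through the mutants, namely obst-E, snsl, Ddc, b and yellow-f2.

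Most genes of the lists of epidermal regulators and of the response to ecdysone, the steroid hormone of the moults, moved the other way. Of the 6 genes listed as epidermal regulators (grh, vvl, rib, ovo, ttk and cora), 5 fell. ovo, whose embryonic isoform shavenbaby shapes epidermal hairs, was at 9.08 ± 0.135 CPM against 86.7 ± 32.5 CPM in controls (adjusted p = 4.25e-06). grh, a transcription factor of epidermal barrier genes, was at 20.8 ± 3.68 against 99.6 ± 4.86 CPM (adjusted p = 0.000238). Of 12 tested ecdysone response genes 8 fell, the nuclear receptor gene Hr3 11.1-fold (adjusted p = 1.53e-06) and Eip75B 7.46-fold (adjusted p = 1.49e-05 in edgeR). Without control 1 or control 2, 3 epidermal regulators passed, and 5 and 3 ecdysone genes; without mutant 1 or mutant 2 these counts were 6 and 5, and 9 and 8.

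Among markers of other tissues, most of those of neurons changed, and few of the others. Of 11 neuron markers 8 fell, and their summed level on the scale of 14 libraries was 134 to 136 CPM in mutants and 572 to 684 CPM in controls. Of 7 muscle markers 2 rose (7290 to 7595 CPM against 3611 to 5257 CPM). Of 4 tested midgut markers 2 rose, at a summed level of 141 to 186 CPM against 125 to 131 CPM for all 8. These 2, Jon65Aiii and Jon65Aiv, had 5 counts each in the controls and entered through the mutants, so their rise was largely built in. Of 6 markers of the tracheae, tubes that carry a cuticle of their own, 1 rose and 1 fell (2493 to 2560 CPM against 1721 to 1898 CPM). The one that rose, obst-A, is also in the chitin formation list. Of 5 tested blood cell markers 1 fell, and He and eater were at 0 in all 4 lola-null libraries. Of 5 germline markers 1 fell, osk (adjusted p = 0.00501 in edgeR). The part of these markers in the Vajk values was not tested.

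In lola-F mutants, which carry a stop in the F isoform, the abundant pair was moderately higher. Vajk2 was at 648, 653 and 711 CPM in the 3 mutants and at 437, 494 and 393 CPM in the 3 controls. Vajk3 was at 688, 662 and 637 CPM in the mutants and at 486, 541 and 361 CPM in the controls. All mutants were above all controls for both genes. The log2 fold change was 0.60 ± 0.14 (SE) for Vajk2, 1.52-fold, and 0.52 ± 0.17 for Vajk3, 1.43-fold.

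Vajk1 and Vajk4 did not pass the filter on low counts in the lola-F set. The libraries held 2, 0 and 0 counts of Vajk1 in mutants and 0, 2 and 4 in controls, and 11, 6 and 6 counts of Vajk4 in mutants and 2, 3 and 1 in controls. For Vajk1, 3 counts correspond to 0.133 CPM in the deepest and 0.902 CPM in the shallowest of these libraries before scaling, so a fall or a small difference of Vajk1 was not detectable at this depth. Vajk4 was at 0.988, 0.489 and 0.314 CPM in mutants and 0.526, 0.305 and 0.0861 CPM in controls, and the groups overlapped.

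Of the 2 Vajk genes tested, Vajk2 was past the threshold and Vajk3 was not, against 3.33% of 10191 genes called higher and 3.73% called lower. The contrast served to choose the genes, so the count is given for completeness. With lola-F control 1 left out, the library with 65.2% of its reads at several places, the log2 fold changes were 0.60 and 0.55 and edgeR called 0 genes, Vajk2 included. The same held without mutant 1, mutant 2 or control 2. With the trend of counts with exonic length removed they were 0.38 and 0.30.

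Among other cuticle genes of the lola-F set, few passed. Of 50 tested chitin-binding genes 6 rose and 0 fell, with a median log2 fold change of 0.27 against 0.02 over all genes, and of 14 tested Tweedle genes 4 rose, with a median of 0.74. TwdlN rose from 989 ± 281 to 2810.0 ± 167 CPM (2.84-fold, adjusted p = 0.0231), Cpr11B from 48.0 ± 3.90 to 89.0 ± 7.32 CPM (1.85-fold, adjusted p = 0.0247) and Cpr100A from 75.1 ± 6.09 to 123 ± 10.3 CPM (1.63-fold, adjusted p = 0.0378). Of 26 genes of chitin formation 2 rose, Cda9, a chitin deacetylase-like gene, 2.06-fold (adjusted p = 0.0242) and obst-B 2.00-fold (adjusted p = 0.0322). ple, the tyrosine hydroxylase of tanning and of dopamine neurons, fell from 143 ± 46.7 to 39.8 ± 9.20 CPM (adjusted p = 0.0247), the only one of 9 tested tanning genes to pass. Among the regulators ovo (adjusted p = 0.046) and the ecdysone receptor gene EcR (adjusted p = 0.0448) fell, to 9.90 ± 2.33 and 21.6 ± 3.63 CPM from 18.98 ± 2.29 and 37.1 ± 4.70 CPM. They were the only calls among 6 tested genes listed as epidermal regulators and 12 tested ecdysone genes. The median log2 fold changes of these lists were −0.53 and −0.70, with 0 and 2 genes positive. At an unadjusted p under 0.05 in edgeR were 3 and 8 genes, and DESeq2 called 2 and 4 lower.

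Some marker genes changed in this set too. Of 11 neuron markers 3 fell (975 to 1308 CPM in sum in mutants, 1443 to 2415 CPM in controls), of 8 midgut markers 4 rose (10070.0 to 13570.0 CPM against 4703 to 6480.0 CPM), and of 7 muscle markers 2 rose and 1 fell. Of 9 blood cell markers 1 fell and of 6 tracheal markers 0 passed (2 at an unadjusted p under 0.05, 1 as lower in DESeq2). Over all genes, 3172 of 10191 were at an unadjusted p under 0.05 in edgeR. The part of these markers in the Vajk values was not tested. With the trend of counts with exonic length removed, the calls went from 6 to 0 in the chitin-binding list, from 4 to 1 in the Tweedle list, from 2 to 1 in chitin formation, from 1 to 2 in tanning and from 1 to 0 for the epidermal regulators and for ecdysone. None of the list calls of this set was present when lola-F mutant 1, mutant 2, control 1 or control 2 was left out. edgeR then called 0 genes in all, with 2595, 2874, 2277 and 2551 at an unadjusted p under 0.05, whereas DESeq2 on all 6 libraries called 815 genes higher and 1117 lower.

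In young lola-O adults the differences were smaller than the spread between libraries. Vajk2 was at 724 and 1242 CPM in the 2 mutants and at 1104 and 1058 CPM in the 2 controls. Vajk3 was at 598 and 1061 CPM in the mutants and at 1063 and 948 CPM in the controls. For both genes, mutant 1 was the lowest of the 4 libraries, and the groups overlapped.

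Vajk1 was at 11.8 and 19.2 CPM in lola-O mutants and at 13.9 and 24.4 CPM in controls, and Vajk4 at 11.6 and 26.5 CPM in mutants and at 10.4 and 15.3 CPM in controls. These groups overlapped as well. The log2 fold changes for Vajk1 to Vajk4 were −0.32 ± 0.32, −0.14 ± 0.34, −0.28 ± 0.34 and 0.54 ± 0.38. The direction of each rested on 1 library: without mutant 2 the value of Vajk4 was −0.16, without mutant 1 those of Vajk2 and Vajk3 were 0.19 and 0.06, and without control 2 that of Vajk1 was 0.15. Of the 4 genes, 0 were past the threshold, against 0.333% of 12906 genes called higher and 0.225% called lower. No member of the chitin-binding (57 tested), Tweedle (18), chitin formation (26) or tanning list (10) passed in edgeR, with 22, 3, 6 and 2 at an unadjusted p under 0.05. DESeq2 called 5, 0, 3 and 1 of them. Over all genes tested, 2085 of 12906 were at an unadjusted p under 0.05 in edgeR, and DESeq2 called 163 higher and 179 lower. Among the markers of other tissues 1 passed, Lsp2, a storage protein gene of the fat body, which was higher in mutants (adjusted p = 0.016 in edgeR).

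**Figure D3:**
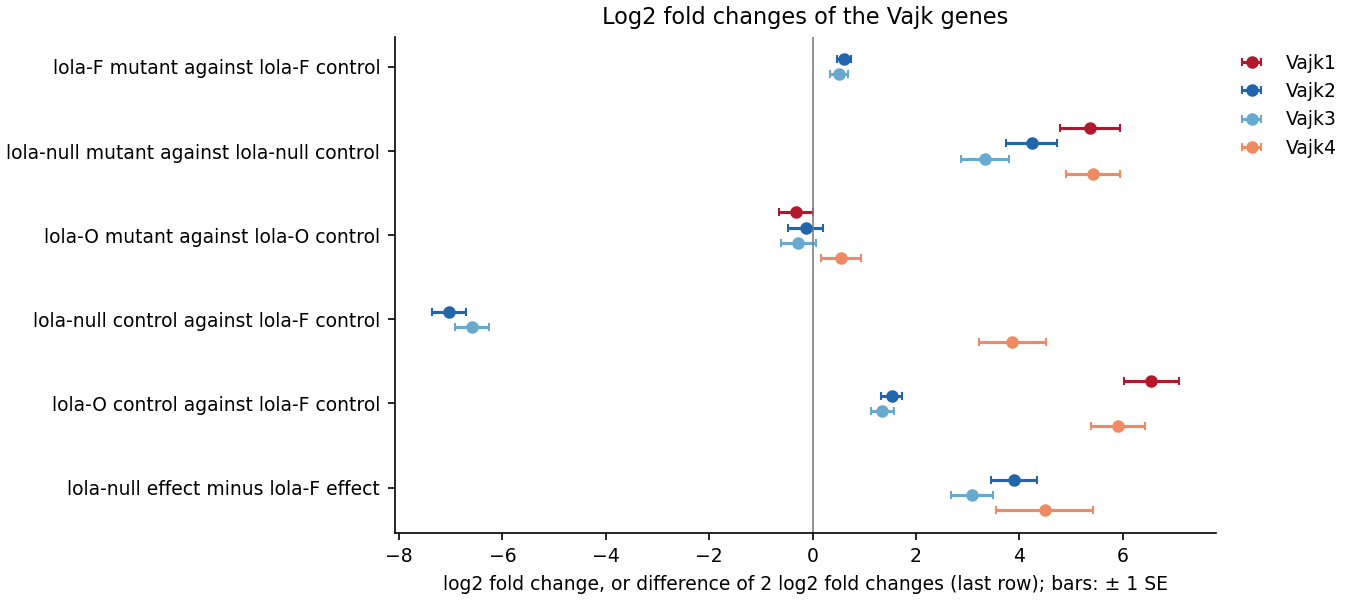
Log2 fold change of each Vajk gene in each comparison from the edgeR fits, with bars of 1 SE; the last row is the difference of 2 log2 fold changes. Genes under the filter have no point, and Vajk1 is left out of the last row because its lola-F mutants held 2 counts. Vajk4 in that row rests on 23 counts in lola-F mutants and 6 in lola-F controls. The points of the lola-null mutants lie between 3.34 and 5.42, those of the lola-F mutants at 0.52 and 0.60 and those of the lola-O mutants on both sides of 0.

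**Figure D4:**
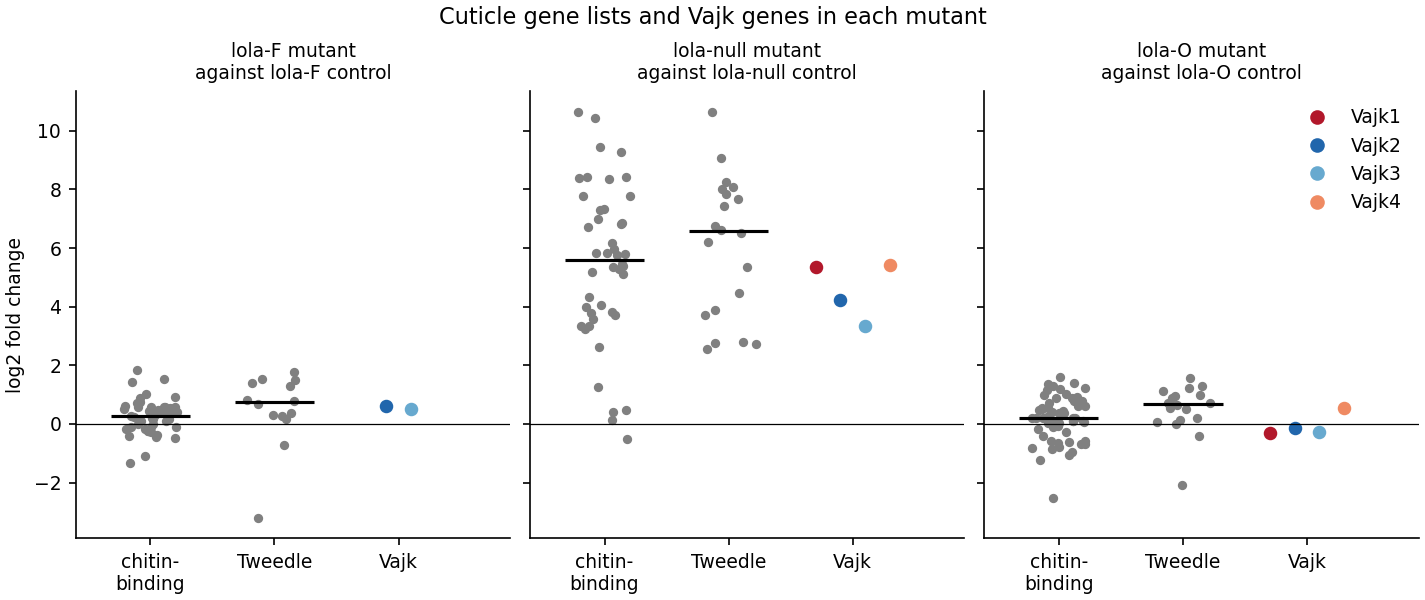
Log2 fold change of the tested chitin-binding cuticle genes and Tweedle genes (grey points, black lines are medians) and of the Vajk genes (coloured points) in each mutant against its controls. In lola-null mutants the medians are 5.61 and 6.57. They are 5.23 and 5.72 with the 6 and 3 genes at 0 in the controls set against 3 counts per library. Most grey points there, and Vajk1, passed the filter only through the mutants. The Vajk genes range from 3.34 to 5.42. In the lola-F set the medians are 0.27 and 0.74, with Vajk3 and Vajk2 at 0.52 and 0.60.

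The effect in lola-null embryos was also set against that in lola-F embryos in 1 model of the 10 embryo libraries. The difference of the log2 fold changes (lola-null minus lola-F) was 3.90 ± 0.45 for Vajk2, 3.08 ± 0.40 for Vajk3 and 4.49 ± 0.94 for Vajk4. Vajk4 was under the filter in the lola-F set, where its part of the difference rests on 23 counts in mutants and 6 in controls. For Vajk1 no value is given, because the lola-F mutants held 2 counts in all. The median of all genes in this model was 0.31, and with upper quartile scaling it was 0.00. Of the 4 genes 4 were past the threshold, Vajk1 included, against 6.9% of 10848 genes called higher and 1.69% called lower. Nothing is read from that count for genes chosen on these values. Among other cuticle genes, 35 of 62 chitin-binding and 15 of 24 Tweedle genes passed as higher and 0 as lower. Genes low in the lola-null controls could enter this model, too, through the lola-null mutants.

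The controls of the embryo sets differed in more genes than any mutant from its controls, although both sets carry the same age label. Scaled over these 5 libraries, Vajk2 was at 3.76 ± 1.46 CPM in lola-null controls (n = 2) and 509.8 ± 68.5 CPM in lola-F controls (n = 3), and Vajk3 at 5.61 ± 0.968 and 535 ± 118 CPM. They were 131-fold and 96.2-fold lower in the lola-null controls. Vajk4 was at 4.50 ± 1.05 CPM against 0.357 ± 0.262 CPM, a log2 fold change of 3.87 ± 0.65 in the other direction. Vajk4 had 6 counts over the lola-F controls and entered through the lola-null controls. Vajk1 did not pass the filter, with 8 and 6 counts in lola-null controls and 0, 2 and 4 in lola-F controls.

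Of the 3 Vajk genes tested between these controls, 3 were past the threshold, against 34.5% of 10501 genes called higher and 35.8% called lower in lola-null controls. Of 54 chitin-binding genes 45 were lower and 6 higher, and of 18 Tweedle genes 9 were lower and 5 higher. Of all 99 chitin-binding genes 37 had no count in the lola-null controls and 13 none in the lola-F controls, and of 27 Tweedle genes 9 and 2. These numbers set 2 libraries against 3, at unlike depth. Reads at several places of the genome entered no gene count, so a gene with no count is not shown to be silent. Lcp65Ab1 and Lcp65Ab2, for example, had no count in any group. Genes low in 1 group could enter through the other, and the direction of such a call was largely built into being tested. Cpr67B was at 1.25 ± 0.305 CPM against 553 ± 10.7 CPM (adjusted p = 3.5e-06) and TwdlN at 3.94 ± 0.0690 against 1135 ± 290 CPM (adjusted p = 4.73e-06 in edgeR, n = 2 and 3). Of 8 midgut markers 8 were lower (125 to 131 against 4703 to 6480.0 CPM in sum), of 7 muscle markers 7 and of 11 neuron markers 9, while 5 of 5 germline markers were higher. The labels do not say whether the sets were prepared together, and set and age cannot be told apart.

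From lola-F control embryos to lola-O control adults, all 4 genes were higher, by very different factors. Scaled over these 5 libraries, Vajk2 rose from 425 ± 55.3 to 1226 ± 42.1 CPM, 2.88-fold, and Vajk3 from 446 ± 96.6 to 1138 ± 19.4 CPM, 2.55-fold. Vajk1 went from 0.173 ± 0.163 to 21.99 ± 9.81 CPM, a log2 fold change of 6.55 ± 0.53, and Vajk4 from 0.297 ± 0.217 to 14.7 ± 4.82 CPM, 5.90 ± 0.52. The low groups of Vajk1 and Vajk4 rest on 6 counts each, and both genes entered through the adults. Of the 4 genes 4 were past the threshold, against 40.1% of 12902 genes called higher and 26.4% called lower, and all genes had a median of 0.19. Of 72 tested chitin-binding genes 32 were higher and 32 lower in adults, and of 18 Tweedle genes 5 were higher and 9 lower. Here, too, genes low in 1 group could enter through the other. Cpr97Ea was at 397 ± 22.1 CPM in adults and 3.46 ± 0.764 CPM in embryos (adjusted p = 6.56e-07), and TwdlN at 2.85 ± 2.39 against 947 ± 248 CPM (adjusted p = 9.56e-06 in edgeR). The lola-F controls enter both comparisons between controls.

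Genes around the Vajk genes were examined to see how far the differences reach along the chromosome. Within 50 kb of Vajk1, Vajk2 or Vajk3 lie the starts of 16 other genes, among them 8 Nimrod genes, and within 50 kb of Vajk4 lie those of 19. In lola-null mutants, 1 of 10 tested neighbours on 2L passed, NimB2, a secreted Nimrod protein, at 73.9 ± 16.4 CPM against 23.2 ± 0.469 CPM (3.19-fold, adjusted p = 0.004 in edgeR, n = 2). Of the 10, 4 were at an unadjusted p under 0.05 in edgeR and 1 was called higher in DESeq2. NimB3, NimB4 and NimB5, next to NimB2, had log2 fold changes of 1.06, 1.17 and 1.35 and did not pass, and NimB1 was at 0.04. Without lola-null control 1 or control 2, 0 Nimrod genes passed. Of 12 tested neighbours of Vajk4, 0 passed in edgeR, 0 at an unadjusted p under 0.05 and 0 in DESeq2. Over all genes, 2559 of 9288 were at an unadjusted p under 0.05 in edgeR. The median log2 fold change of the neighbours was 0.05 at each place.

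In lola-F mutants, 1 of 12 tested neighbours on 2L passed, NimB3, a secreted Nimrod protein, which went from 1.73 ± 0.220 to 4.37 ± 0.707 CPM (adjusted p = 0.0419 in edgeR, n = 3), a call lost with the length trend removed. Of the 12, 6 were at an unadjusted p under 0.05 in edgeR and 2 were called higher in DESeq2. Of 13 near Vajk4, 0 passed in edgeR (4 at an unadjusted p under 0.05, 0 in DESeq2). The median log2 fold change was 0.33 for the neighbours on 2L and 0.21 for those of Vajk4, against 0.02 over all genes. Vajk2 and Vajk3 were at 0.60 and 0.52. In lola-O mutants, 0 of 15 and 0 of 16 passed in edgeR, with 5 and 2 at an unadjusted p under 0.05 and 1 and 0 called in DESeq2. Over all genes, 3172 of 10191 in the lola-F set and 2085 of 12906 in the lola-O set were at an unadjusted p under 0.05 in edgeR. Ance-3, whose span holds Vajk1, Vajk2 and Vajk3, was at group means of 0.335 to 0.608 CPM in embryos on the scale of 14 libraries, where Vajk2 ranged from 3.62 to 742 CPM. In adults Ance-3 was at 29.2 ± 0.760 CPM in mutants and 27.1 ± 2.00 CPM in controls.

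**Figure D5:**
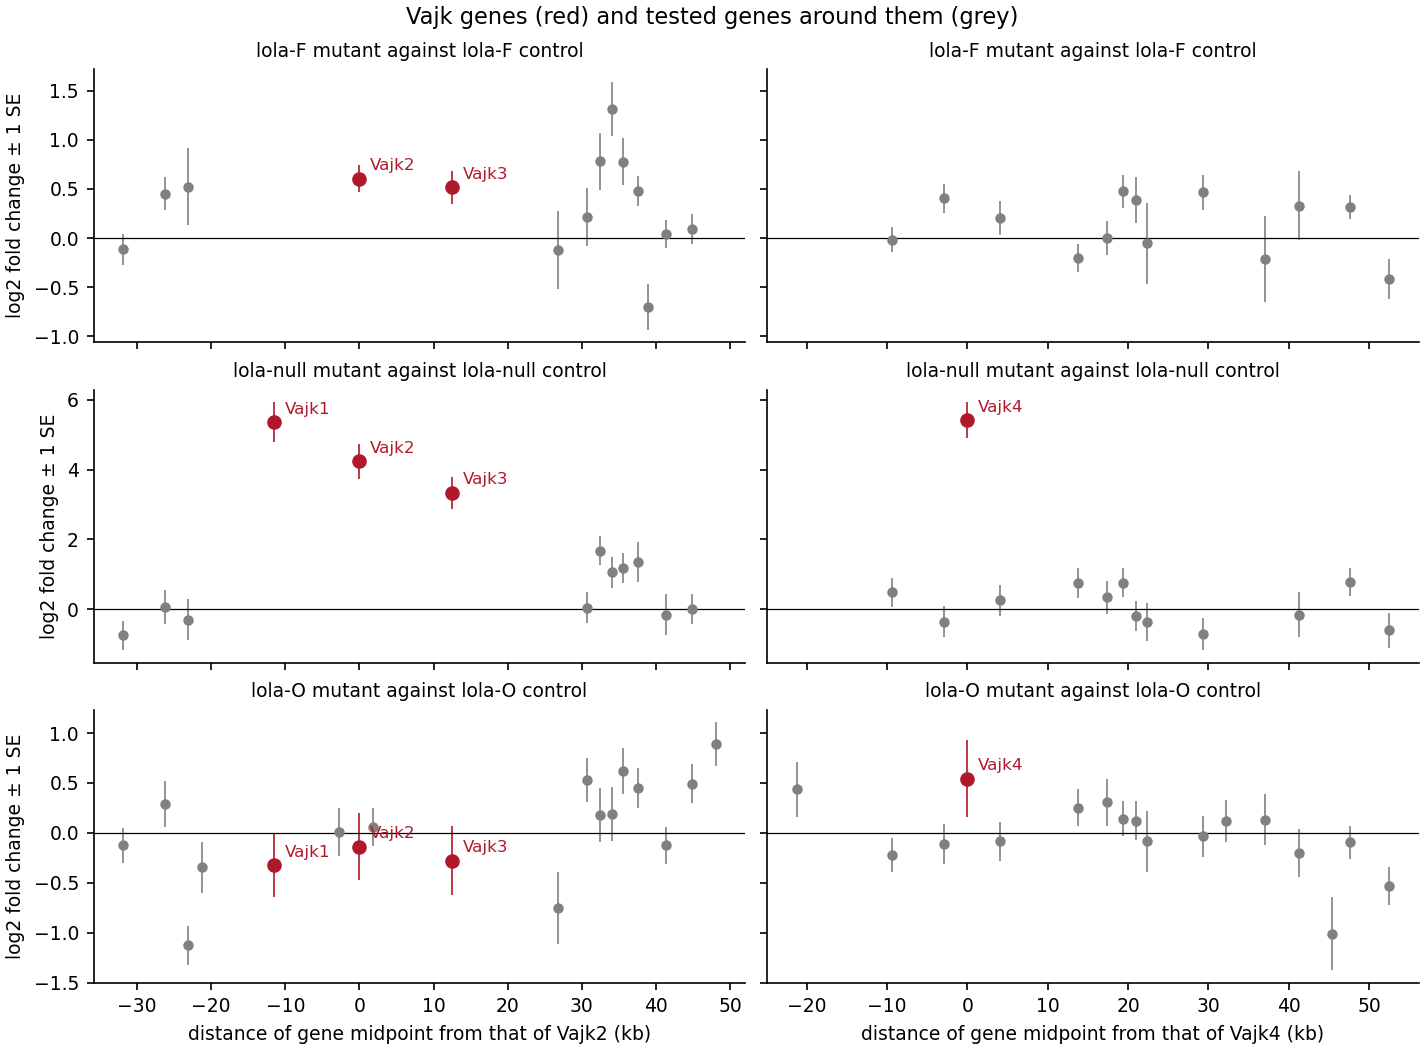
Log2 fold change (± 1 SE) of the Vajk genes (red) and of the tested genes whose start lies within 50 kb of one (grey), by distance in kb from the midpoint of Vajk2 on 2L (left) and of Vajk4 on 2R (right), in the 3 mutants. The vertical scale differs between rows. In lola-null mutants the Vajk genes lie at 3.34 to 5.42, above every grey point.

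Genes with the pattern most like each Vajk gene were ranked by the Pearson correlation of log2(CPM + 1) over 14 libraries, among 11966 genes with a mean of at least 5 CPM in 1 group. For Vajk4 they were CG12164 (0.989), CG2150 (0.986), the Tweedle gene TwdlD (0.985), the chitin-binding gene Cpr66D (0.977) and CG13049 (0.972). TwdlD was at 335 CPM in lola-null mutants, 3.97 CPM in their controls, 0.214 and 0.337 CPM in lola-F mutants and controls and 23.1 and 10.1 CPM in lola-O mutants and controls. TwdlD and CG12164 also led the ranking over the 10 embryo libraries, where the 5 genes stood at places 1 to 20. By Spearman correlation over 14 libraries they stood at places 2 to 37.

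For Vajk1 the closest genes were polyph, an amino acid transporter gene (0.981), CG14752 (0.976), CG10343 (0.962), CG11380 (0.958) and CG13239 (0.952). polyph had no count in the lola-F libraries or the lola-null controls and was at 25.1 CPM in lola-null mutants and 10.9 and 10.8 CPM in adult mutants and controls. The closest genes of Vajk2 were CG1208 (0.989), GV1 (0.988), l(2)34Fc (0.988), kumpel (0.986) and Ass, the argininosuccinate synthetase (0.985). Those of Vajk3 were CG1208 (0.993), GV1 (0.991), kumpel (0.991), flap (0.990) and l(2)34Fc (0.989). Vajk2 and Vajk3 thus shared 4 of their 5 closest genes, and Vajk1 and Vajk4 shared 0. Which genes are closest depended on the measure. Over the 10 embryo libraries these genes stood at places 10 to 59 for Vajk1, 25 to 49 for Vajk2 and 6 to 60 for Vajk3. By Spearman correlation, kumpel stood at place 806 for Vajk2 and 714 for Vajk3, Ass at 262 for Vajk2 and flap at 527 for Vajk3. l(2)34Fc was at 152 and 120.4 CPM in lola-F mutants and controls, 10.5 and 0.701 CPM in lola-null mutants and controls and 307 and 308 CPM in adult mutants and controls. These correlations, too, mainly describe differences between sets.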

How the data were processed

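Per the submitters' processing notes, the authors used STAR 2.5.0c, HTSeq 0.6.1p1 and the BDGP6 build. Neither annotation release nor counting strand is stated there, so reads of genes on opposite strands may not be separated. The deposited files hold raw gene counts of 1 library each, with summary rows (6.32% to 66.7% of reads) that stayed out of library sizes and tests. Files of the lola-F and lola-O sets list 17558 genes, those of the lola-null set 17387, and the remaining 171 entered no comparison with the lola-null set. Symbols and positions came from BDGP6.54 (17252 identifiers matched, 306 did not). lola was read from FBgn0005630, known as its former identifier.

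Each comparison was fitted in R 4.3.3 with edgeR 4.0.16 on its own libraries (filterByExpr, TMM, quasi-likelihood F test, Benjamini-Hochberg adjustment at 0.05). The SE of a log2 fold change is its size over the root of F. CPM values were computed here from the counts. An exact permutation test was added for lola. The labels name no separate collections for replicates, and p-values cover the spread of these libraries only, which may be technical. No library pair of a group matched within counting noise (chi-square over degrees of freedom from 3.08 to 85.4). The fits were tested on simulated data. Replicate numbers did not pair libraries. Alternatives were RLE and upper quartile scaling, no filter, DESeq2 1.42.0, removal of the trend with exonic length, a prior count of 2, the replicate block and each library left out.

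The members, the lists and the rule for named genes were chosen with earlier results of these data known. Named genes were lola, up to 3 called genes per list and comparison with the smallest p, genes within 50 kb, and the 5 genes most like each Vajk gene; Cpr, the cytochrome P450 reductase, was taken out of the chitin-binding list by its identity. No sequences were used here.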

Additional observations from a re-analysis of the deposited data

Results flagged for a closer look

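The mutant effect differed between the lola-null and lola-F sets, by the test of the difference in edgeR, for 35 members of the chitin-binding cuticle list, 15 of the Tweedle list, 7 of the chitin formation list (6 higher and 1 lower), 5 of the tanning list, 4 of the epidermal regulators and 2 of the ecdysone list. The chitin-binding, Tweedle and tanning genes were higher, and the regulators and ecdysone genes lower, in the lola-null effect. With each embryo library left out in turn, 26 to 37 chitin-binding and 11 to 17 Tweedle genes passed, and the counts of the smaller lists rested more on single libraries, with 3 to 8 for chitin formation, 1 to 5 for tanning, 1 to 5 for the epidermal regulators and 0 to 7 for ecdysone.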

How the results depend on the processing

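The Vajk log2 fold changes kept their direction in the lola-null, lola-F and both control comparisons under every alternative run. Their median in the lola-null set was 4.52 with the length trend removed (4.80 as reported) and 4.32 to 4.94 with each library left out, and in the lola-F set 0.34 (from 0.56) with the length trend removed. Between adult and lola-F controls it was 3.15 with the length trend removed and 3.28 with a prior count of 2 (from 3.71), and 3.37 to 3.93 with each library left out. For the difference of the embryo effects it was 3.71 without a filter and 3.88 with upper quartile scaling (from 4.19, Vajk1 included). With each library left out it was 3.68 to 4.37. Counts of called genes moved more. In the lola-F set (719 genes) DESeq2 called 1932, upper quartile scaling 1382 (943 higher and 439 lower), no filter 427, the length trend removed 275 (171 and 104), and leaving out 1 library 0 to 1150. In the lola-null set (1570 genes, 689 and 881) leaving out 1 library gave 546 to 3112, and the length trend removed gave 816 higher and 698 lower. In the lola-O set (72 genes) DESeq2 called 342, no filter 415, upper quartile scaling 117 and leaving out 1 library 5 to 227. For the difference of the embryo effects (932 genes, 749 and 183) the range was 293 to 1569, and upper quartile scaling gave 534 higher and 361 lower. Between adult and lola-F controls (5176 and 3412) the length trend removed gave 4655 and 4754. The causes were not tested. As a replicate block, the numbers gave 0 called genes in the lola-F set (2494 at an unadjusted p under 0.05), 669 in the lola-O set and 435 for the difference; deviations of same-numbered libraries correlated by −0.15 to −0.036, −0.253 and 0.094 in the lola-F, lola-null and lola-O sets, so the numbers were not used to pair libraries. A crossed pairing of the lola-null libraries as block, chosen after seeing the data, called 2095 genes. Depth limits Vajk1 and Vajk4 in the lola-F set and all 4 genes in the lola-null controls (76 and 110 Vajk counts).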
